A study of Mus musculus with 21 samples.

Results

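The cerebella of 30-day-old mice that lack cystatin B were compared with those of wild type mice of the same age, on the 6 arrays labelled P30 (3 Cstb-/- and 3 wild type) among the 21 arrays of the series. Every sample was a whole cerebellum of the 129SvJ background, and the labels name no treatment. The Cstb-/- mice carried a targeted allele in all cells, and the controls were wild type littermates by the methods. The other arrays, 8 from P7 cerebella and 7 from cultured cerebellar granule cells, entered only where an effect at P30 was set against the effect there. Knockout replicate 1 was labelled female and the other 5 samples male, whereas the methods give males alone. Xist stood at 0.01 on that array, on the log2 scale relative to the wild type mean, and at -0.04 to 0.18 on the other 5, and the Y-linked Eif2s3y stood at -0.05 against -0.06 to 0.17, so these genes showed no sex difference among the 6 arrays.

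Cystatin B, the product of Cstb, is a small inhibitor of the cysteine cathepsins, proteases that act mainly in lysosomes. Loss of its function causes progressive myoclonus epilepsy of the Unverricht-Lundborg type in humans, and mice without it develop myoclonic seizures, ataxia and a loss of cerebellar granule neurons. Microglia are the resident macrophages of the brain; they sense damage through surface receptors, many of which signal through the adaptor Tyrobp, and they make complement C1q, cathepsins and chemokines. Astrocytes, which include the Bergmann glia of the cerebellum, respond to damage by raising the intermediate filament protein Gfap.

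Values are log2 signals that the authors had normalized and centred on the median of each probe set, and they are given here relative to the mean of the 3 wild type arrays. Levels are therefore not kept: signals of different genes cannot be compared, and the labelled tissue could not be checked against marker levels. In whole tissue, more cells of a type and more RNA per cell cannot be told apart.

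Cstb itself was strongly reduced at P30. By one of its probe sets, the knockout arrays stood at -2.70, -2.69 and -2.70 and the wild type arrays at 0.02, -0.04 and 0.02, which is 6.48-fold lower (SE of the log2 difference 0.07, n = 3 arrays of each genotype, limma adjusted p = 6.94e-07). By the other, the knockout arrays stood at -2.68, -2.82 and -2.80 and the wild type arrays at -0.06, -0.11 and 0.17 (6.82-fold lower, SE 0.09, adjusted p = 4.85e-06 from limma). All 3 knockout samples thus matched their labels. Of 13 measured cystatins Cstb alone changed (4 of them, Cstb included, had an unadjusted p under 0.05 in limma and 2 passed the methods' t-test corrected past the fold). Cst7, a cystatin of activated microglia, had a log2 difference of 0.42 (SE 0.08, adjusted p = 0.174 from limma) and its genotypes did not overlap.

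Across the cerebellum at P30, 65 of 45037 probe sets (0.144%) passed both thresholds, an adjusted p under 0.05 in limma and a fold change of at least 1.3. Of these, 62 were upregulated (0.138%) and 3 downregulated (0.00666%), the latter being both probe sets of Cstb and 1 of Ryr3. On every one of the 65 probe sets the arrays of the genotypes did not overlap, which the call itself makes likely. Probe sets that did not pass, such as that of Cd48, could also show no overlap. The 65 comprised 59 probe sets of 46 genes, 44 of them upregulated and 2 downregulated (for the rises, 0.242% of 18193 genes by any probe set), besides 3 probe sets shared by several genes and 3 that carry no gene symbol in the annotation used. Each gene was otherwise represented by its lowest-numbered probe set, and by that count 34 genes rose (0.187%) and 1 fell. Over all genes, 886 higher values (4.87%) and 484 lower ones (2.66%) had an unadjusted p under 0.05 in limma. The methods' t-test called 1 probe set, of Cstb, with correction over all probe sets and 210 with correction over the 624 past the fold alone, 189 of them higher.

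**Figure D1:**
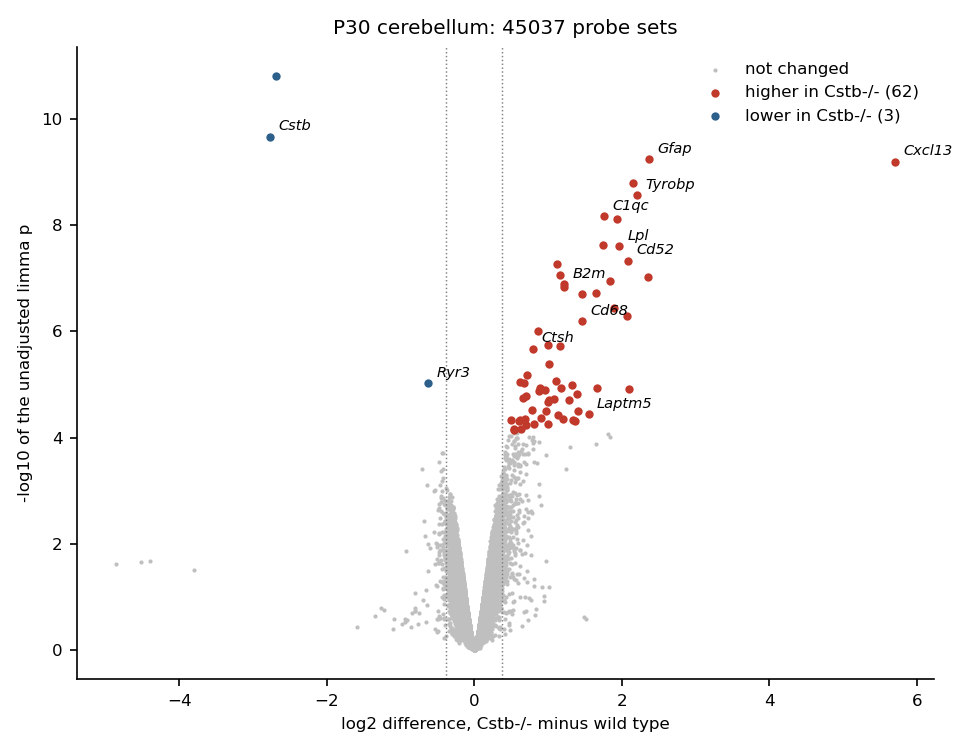
Each point is 1 of 45037 probe sets, with the log2 difference (Cstb-/- minus wild type, 3 arrays each) on the horizontal axis and -log10 of the unadjusted limma p on the vertical axis; dotted lines mark a fold of 1.3. The 62 red points lie to the right and only 3 blue points to the left, and Cxcl13 stands apart from all other risen genes at 5.70.

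The calls rested on few arrays, and 27 probe sets were called with all arrays and also when any 1 of the 6 was left out. One of them has no gene name here, and the others belonged to 21 genes, Cstb, Cxcl13, Gfap, Tyrobp, C1qa, C1qb, C1qc, Cd52, Lpl, Mpeg1, Clec7a, Cd44, Ly86, Cd68, B2m, Lgals3, Fcer1g, Ctsh, Gusb, Scyl2 and AU020206. The count was 29 probe sets without knockout replicate 1 or without wild type replicate 1, 33 without wild type replicate 2, 37 without knockout replicate 3, 75 without wild type replicate 3 and 76 without knockout replicate 2. Of the other changed genes, Ryr3 among them, no probe set was called in all of these fits.

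The chemokine Cxcl13, which attracts B cells and is made by macrophages and microglia in inflamed tissue, showed the largest rise. Its knockout arrays stood at 5.60, 5.24 and 6.26 and its wild type arrays at -0.02, 0.06 and -0.04, a fold change of 51.9 (log2 difference 5.70, SE 0.21, n = 3 arrays of each genotype, limma adjusted p = 7.17e-06). Its second probe set gave a smaller rise of 2.35 (SE 0.15, adjusted p = 0.000308 from limma), with knockout arrays at 2.33, 2.02 and 2.69. The spread among the knockout arrays was small beside the distance between genotypes on both probe sets.

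Of 31 measured chemokines and chemokine receptors, 19 had higher values and 2 rose, Cxcl13 and Ccl6, against 0.187% of all genes. Ccl6, a macrophage chemokine, stood at 1.23, 0.97 and 1.13 in the knockout and at -0.15, 0.28 and -0.12 in the wild type (fold change 2.15, SE 0.12, adjusted p = 0.0131 from limma), while its second probe set had 0.27. Ccl3 and Ccl12, which attract monocytes, did not pass at 0.71 (SE 0.22) and 0.58 (SE 0.15), and Cxcl10, an interferon-induced chemokine, had 0.31 (SE 0.07). For Ccl3, knockout replicate 1 at 1.28 lay far above the other knockout arrays at 0.40 and 0.43. Among 34 cytokines and their receptors, Osmr, the oncostatin M receptor of astrocytes and other cells, was the 1 gene that rose (0.99, SE 0.14, adjusted p = 0.0414 from limma), on 1 of 3 probe sets with 0.33 and 0.00 on the others, and Tnf had -0.16 and Il10 -0.27.

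**Figure D2:**
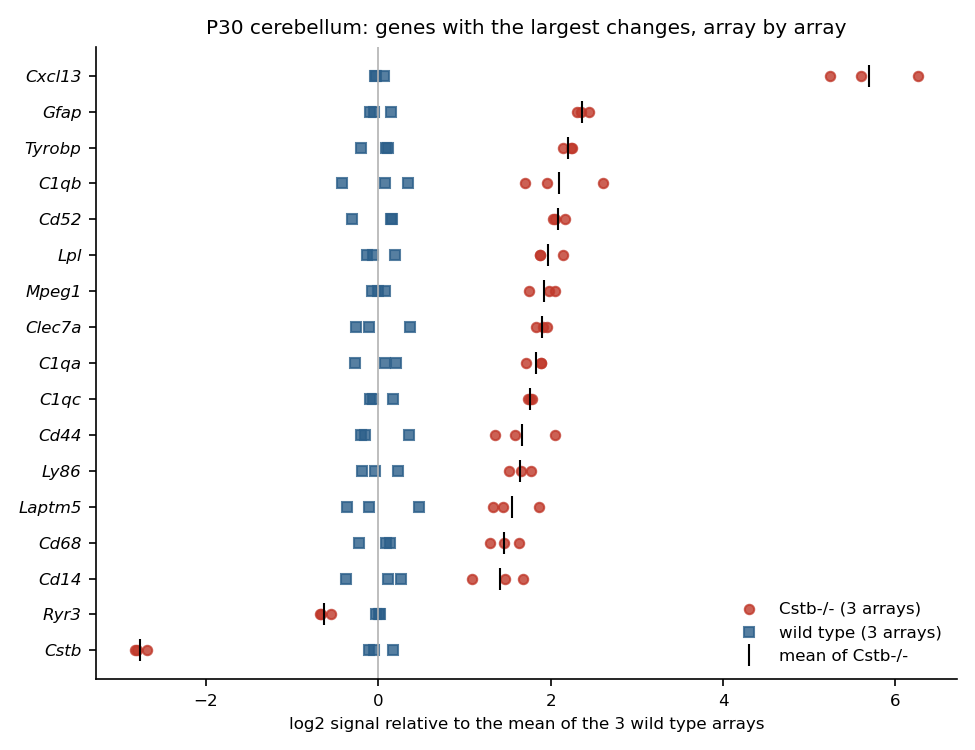
The horizontal axis gives the log2 signal of each array relative to the wild type mean for the 15 genes with the largest rises and the 2 that fell; red circles are the 3 Cstb-/- arrays, blue squares the 3 wild type arrays and black ticks the Cstb-/- mean. These genes were picked from changed probe sets whose genotypes do not overlap, so their separation is part of the selection. The knockout arrays of C1qc lie within 1.74 to 1.78.

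All 3 chains of complement C1q, the molecule that starts the classical complement pathway and is made in the brain chiefly by microglia, rose together. C1qa stood at 1.71, 1.89 and 1.89 in the knockout and at -0.28, 0.07 and 0.21 in the wild type, a 3.56-fold rise (SE 0.12, n = 3 arrays of each genotype, limma adjusted p = 0.000338). C1qc stood at 1.74, 1.76 and 1.78 against -0.10, -0.07 and 0.16, a 3.38-fold rise (SE 0.09, adjusted p = 4.27e-05 from limma). C1qb rose on each of its 3 probe sets, by 2.09 (SE 0.24), 2.06 (SE 0.16) and 1.38 (SE 0.17). No other gene of the 15 measured in the complement component list passed (4 of the 15 had an unadjusted p under 0.05 in limma, and 3 passed the methods' t-test corrected past the fold): Clu, an inhibitor of the terminal pathway, had 0.37 (SE 0.09, adjusted p = 0.326 from limma), and the serine protease Masp1 and the early component C2 had -0.20 and -0.07. By their representing probe sets 3 of the 15 rose, against 0.187% of all genes. The list held 19 entries, so not every complement component was measured. C4b, which the paper names as upregulated at P30, had no probe set of its own here. Whether it is among the called probe sets without a single gene symbol was not tested.

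Among 7 complement receptors, Itgb2, the shared beta chain of the leukocyte integrins, rose by 1.02 (SE 0.13, adjusted p = 0.0198 from limma), with knockout arrays at 1.24, 0.82 and 0.99. C3ar1, the receptor of a complement fragment that draws in macrophages, rose on 2 of its 3 probe sets (0.88 and 0.63) and had 0.29 on the third. Itgam and Itgax, the alpha chains that pair with Itgb2, did not pass at 0.21 and 0.25. Of the 7 receptors 1 rose by its representing probe set (0.187% over all genes) and 2 by any (0.242% over all genes). Itgb2 lies near Cstb on chromosome 10. Of 21 measured genes in that neighbourhood it was the only one that changed (0.187% of all genes rose). The median difference of the 21 was 0.01.

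Tyrobp, the signalling adaptor of many microglial receptors, rose 4.61-fold. Its knockout arrays stood at 2.24, 2.14 and 2.23 and its wild type arrays at -0.20, 0.12 and 0.09 (log2 difference 2.20, SE 0.10, n = 3 arrays of each genotype, limma adjusted p = 2.06e-05). In the list of microglial genes linked to signalling through Tyrobp and Trem2, 20 of 23 measured genes had higher values and 7 rose. The median difference was 0.43. Over all genes, 51.1% had higher values, 0.187% rose and the median was 0.00. The list also holds Lpl, the lipoprotein lipase of lipid-laden phagocytes, which rose 3.90-fold (knockout 1.88, 2.14 and 1.88, wild type 0.20, -0.14 and -0.06, adjusted p = 0.000112 from limma) and 1.95-fold on its second probe set (adjusted p = 0.029). Clec7a, a receptor for fungal glucans that marks activated microglia, rose 3.73-fold (SE 0.14), and Lgals3, a galectin of phagocytes, rose 2.24-fold (SE 0.11). Trem2 itself, the lipid receptor that signals through Tyrobp, had -0.06 (SE 0.10) with overlapping arrays on one probe set and 0.57 (SE 0.11) without overlap on the other, and neither passed (adjusted p = 0.924 and 0.163 from limma). Tlr2, a receptor for bacterial lipoproteins, and the tetraspanin Cd9 did not pass, with adjusted p values of 0.0638 and 0.0548 from limma at 0.78 and 0.58.

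Markers of the surface of macrophages and other leukocytes showed the same direction. Of 47 measured genes, 42 had higher values, with a median of 0.23. By their representing probe set 11 rose (0.187% over all genes), and 13 by any probe set (0.242% over all genes). Cd52, a small glycoprotein of leukocytes, stood at 2.16, 2.05 and 2.03 in the knockout and at -0.31, 0.16 and 0.15 in the wild type, a 4.23-fold rise (SE 0.13, adjusted p = 0.000189 from limma). Mpeg1, a pore-forming protein of macrophages, stood at 1.98, 1.74 and 2.06 against -0.08, 0.00 and 0.07 (3.80-fold, SE 0.09, adjusted p = 4.27e-05 from limma). Ly86, which serves the receptor of bacterial lipopolysaccharide on immune cells, rose 3.13-fold (SE 0.12), and Cd14, the co-receptor of lipopolysaccharide, rose 2.66-fold (SE 0.18). Cd53, a leukocyte tetraspanin, rose 2.57-fold (SE 0.19) on 1 of its probe sets with a log2 difference of 0.22 on the other, and Laptm5, a lysosomal protein of blood cells, rose on 2 of its 5 probe sets (1.55 and 0.61) with -0.24 to 0.06 on the others.

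Other pan-leukocyte and pan-macrophage genes showed smaller rises or did not pass. Ptprc, which encodes the leukocyte common antigen CD45, stood at 2.05, 0.98 and 1.91 in the knockout and at -0.32, 0.24 and 0.07 in the wild type; at 1.65 (SE 0.26) it was as large as Ly86 and did not pass (adjusted p = 0.0684 from limma). Aif1, which encodes the microglial marker Iba1, rose by 0.62 (SE 0.08), and Plek, a cytoskeletal protein of leukocytes, rose by 0.69 (SE 0.08) on 1 of 3 probe sets, while its others had 0.39 and 0.97 and did not pass (adjusted p = 0.401 and 0.0862 from limma). Slc11a1, a metal transporter of phagosomes, rose by 0.54 (SE 0.08). Cd48, a ligand on leukocytes, had 0.38 (SE 0.07, adjusted p = 0.167 from limma). Knockout replicate 2 had the lowest knockout value for Ptprc, Cd53 and Cd14.

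The genes that mark microglia at rest gave few calls. Of 23 measured, 17 had higher values and 2 rose (0.187% over all genes), with a median of 0.11. Csf1r, the receptor on which microglia depend for survival, rose by 0.90 (SE 0.12) and 0.53 (SE 0.08) on 2 of its 3 probe sets with 0.64 on the third, and the matrix protein gene Olfml3 rose by 0.66 (SE 0.08). Cx3cr1, the fractalkine receptor, had 0.56 (SE 0.12), the purine receptor P2ry12 had 0.44 (SE 0.18) and Tmem119 had 0.04 (SE 0.10), none of which passed. Of 10 genes of border and perivascular macrophages, 8 had higher values and none passed in limma (3 at an unadjusted p under 0.05, and 0 by the methods' t-test with either correction); Mrc1, their mannose receptor, had 0.28 and Cd163, the scavenger receptor of haemoglobin, had 0.40.

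Receptors for the constant part of antibodies showed 2 rises among 10 measured genes, against 0.187% of all genes. Fcer1g, the signalling chain shared by several of them, stood at 0.99, 1.12 and 0.89 in the knockout against -0.02, -0.12 and 0.14 in the wild type (2.00-fold, SE 0.09, n = 3 arrays of each genotype, limma adjusted p = 0.00338). Fcgr3, an activating receptor for IgG, rose 2.30-fold (knockout 1.25, 0.90 and 1.47, adjusted p = 0.0366 from limma). Fcgr1 had 0.44 and did not pass, and the 5 probe sets of the inhibitory receptor Fcgr2b ran from -0.12 to 0.58 without a call.

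**Figure D3:**
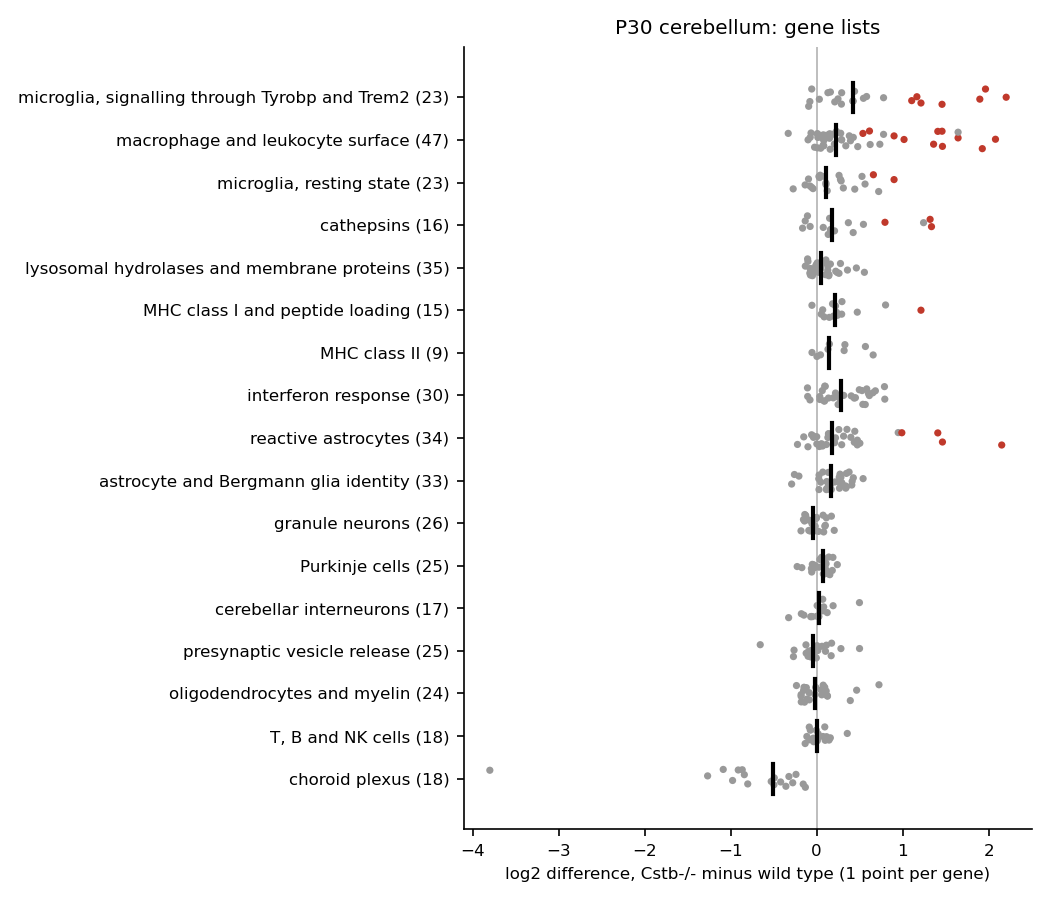
Each point is 1 gene, placed by its log2 difference (Cstb-/- minus wild type) within 17 of the gene lists; red points rose, grey points did not pass and black bars are list medians, with the number of measured genes in brackets. The medians of the macrophage surface and Tyrobp lists lie at 0.23 and 0.43 with 11 and 7 risen genes, those of the neuronal lists near 0, and all 18 choroid plexus genes lie to the left with no call.

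Presentation of antigen by MHC class I, which shows peptides from inside a cell to cytotoxic T cells, had higher values in nearly all of its genes. B2m, the invariant chain of all class I molecules, stood at 1.17, 1.15 and 1.33 in the knockout and at -0.09, 0.08 and 0.01 in the wild type, a 2.32-fold rise (SE 0.08, adjusted p = 0.000365, limma, 3 arrays each), and a 2.17-fold rise on a second probe set. H2-K1, a heavy chain of class I, rose on 1 of its 4 probe sets (0.70, SE 0.10, adjusted p = 0.0414 from limma), with 0.80, 0.33 and -0.07 on the others; the probe sets of this family can bind related heavy chains. Of 15 measured class I and peptide loading genes, 14 had higher values (51.1% over all genes), with a median of 0.22. By its representing probe set 1 rose (0.187% over all genes). Among 9 class II genes, 8 had higher values and none passed in limma (4 at an unadjusted p under 0.05, 1 by the methods' t-test corrected past the fold and 0 over all probe sets). Cd74, the invariant chain of class II, had 0.57 (SE 0.09, adjusted p = 0.0606 from limma), and H2-Aa stood at 1.20 in knockout replicate 1 but at 0.44 and 0.33 in the other two.

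Interferon-stimulated genes had higher values as a group without single calls. Of 30 measured genes, 27 had higher values and the median was 0.29, the highest of any list without a call in which the array medians of the genotypes did not overlap. None passed in limma (14 at an unadjusted p under 0.05, 5 by the methods' t-test corrected past the fold, 0 over all probe sets). Rtp4, a chaperone induced by interferon, stood at 0.95, 0.71 and 0.71 in the knockout and at 0.02, -0.23 and 0.21 in the wild type (0.79, SE 0.12, adjusted p = 0.0605 from limma). Usp18, which trims the interferon-induced modifier from proteins, had 0.79 (SE 0.12), Oasl2 had 0.68 (SE 0.11) and the GTPase Igtp had 0.58 (SE 0.09). Outside the list, Gbp6, an interferon-induced guanylate-binding protein, rose by 1.00 on 1 of 2 probe sets (SE 0.12, adjusted p = 0.0205 from limma) and had 0.59 on the other (adjusted p = 0.0850), and Ifi27l2a, another interferon-induced gene, rose by 0.68 (SE 0.08, adjusted p = 0.0133 from limma).

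The promoters of risen genes were examined for the binding motifs of factor families that act in myeloid cells and in the interferon response. RefSeq windows of 300 bases (250 before the start of the transcript and 50 from it on, build GRCm38.p6) were given for 32 of the 44 upregulated genes, 36 windows in all. The motif of ETS factors such as PU.1, GAGGAAGT read on both strands, lay in 6 of these 36 windows (16.7%), those of C1qc, Cd53, Ctsc, Ctss, Gusb and Pycard, and in 3.2% of all 32851 windows. An interferon response motif, GAAA followed by any 2 bases and GAAA again, lay in 3 of 36 (8.33%, Aif1, B2m and Ctss) against 3.44%, and a kappaB motif, GGGA followed by any 2 bases and TTCC, in 1 (2.78%, B2m) against 1.47%. Matches of different motifs did not overlap in any window shown, and a match is a description of these letters, not of binding. Windows of 4 genes are shown, B2m and Ctss because each holds a pair of motifs and C1qc and Cd53 as risen microglial genes with the ETS motif; capitals mark the matches.
B2m, chr2:122147437-122147736, plus strand: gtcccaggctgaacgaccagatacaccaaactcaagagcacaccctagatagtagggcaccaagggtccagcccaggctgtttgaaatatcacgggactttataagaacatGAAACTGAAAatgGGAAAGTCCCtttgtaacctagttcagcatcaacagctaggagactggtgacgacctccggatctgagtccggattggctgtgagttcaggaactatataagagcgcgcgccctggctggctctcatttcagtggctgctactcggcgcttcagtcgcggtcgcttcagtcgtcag
Ctss, chr3:95526536-95526835, plus strand: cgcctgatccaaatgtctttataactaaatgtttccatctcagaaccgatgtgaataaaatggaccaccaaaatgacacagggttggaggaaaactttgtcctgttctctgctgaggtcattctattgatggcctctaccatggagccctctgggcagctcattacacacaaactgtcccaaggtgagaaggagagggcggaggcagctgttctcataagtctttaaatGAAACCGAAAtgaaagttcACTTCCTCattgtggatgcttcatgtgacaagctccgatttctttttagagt
C1qc, chr4:136892865-136893164, minus strand: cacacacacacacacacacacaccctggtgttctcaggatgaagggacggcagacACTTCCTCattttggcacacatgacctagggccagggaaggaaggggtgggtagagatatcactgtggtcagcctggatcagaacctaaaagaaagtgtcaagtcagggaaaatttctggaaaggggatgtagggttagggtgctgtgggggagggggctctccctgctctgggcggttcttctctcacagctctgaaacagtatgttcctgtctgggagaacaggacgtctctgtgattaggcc
Cd53, chr3:106790100-106790399, minus strand: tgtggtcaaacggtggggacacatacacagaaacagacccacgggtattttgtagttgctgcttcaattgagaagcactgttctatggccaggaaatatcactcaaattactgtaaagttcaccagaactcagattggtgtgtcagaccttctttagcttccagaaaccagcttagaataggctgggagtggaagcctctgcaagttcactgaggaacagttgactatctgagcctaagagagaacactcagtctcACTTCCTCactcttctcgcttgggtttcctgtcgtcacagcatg
Counted from the first printed base, the start site is base 251. In B2m the interferon motif began at base 112 and the kappaB motif at base 125. In Ctss the interferon motif began at base 230 and the ETS motif at base 249, across the start site, whereas in C1qc the ETS motif began at base 56 and in Cd53 at base 257. The kappaB match and the ETS matches in these windows lie on the strand opposite to the one printed, so that the ETS motif reads ACTTCCTC.

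Cathepsins, the proteases that cystatin B and its relatives hold in check or that share their compartment, rose for 3 members. Of 16 measured genes, 12 had higher values, 3 rose against 0.187% of all genes and none fell, with a median of 0.18. Ctss, the cathepsin of microglia and other antigen-presenting cells, stood at 1.22, 1.06 and 1.68 in the knockout and at -0.15, 0.03 and 0.12 in the wild type (2.50-fold, SE 0.15, n = 3 arrays of each genotype, limma adjusted p = 0.0136). Ctsc, which activates serine proteases of leukocytes, stood at 1.23, 1.50 and 1.29 against -0.18, -0.31 and 0.48 (2.53-fold, SE 0.18, adjusted p = 0.0370 from limma), and its 2 other probe sets had 0.20 and 0.12. Ctsh, an aminopeptidase inhibited by cystatin B, rose 1.74-fold and 1.64-fold on its probe sets, with knockout arrays at 0.80, 0.73 and 0.85 on the first. Ctse, an aspartic protease, had 1.24 (SE 0.23), with knockout arrays from 0.82 to 1.60 and wild type arrays from -0.36 to 0.43, and did not pass (adjusted p = 0.121 from limma). Ctsd and Ctsz had 0.43 and 0.55 and did not pass either.

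Other lysosomal genes differed little. Of 35 measured hydrolases and membrane proteins, 24 had higher values with a median of 0.05. None passed by its representing probe set in limma (7 at an unadjusted p under 0.05, 2 by the methods' t-test corrected past the fold, 0 over all probe sets). By any probe set 3 rose (0.242% over all genes). One of the 3 was Gusb, the beta-glucuronidase, which stood at 0.82, 0.87 and 0.88 in the knockout against -0.09, 0.07 and 0.02 (1.81-fold, SE 0.07, adjusted p = 0.00188 from limma), with 0.56 on its second probe set. The others were Laptm5 and Grn, the progranulin of microglia and neurons, whose 3 probe sets gave 0.49, 0.46 and 0.41 and passed on the first. Cd68, a lysosomal membrane protein of phagocytes in the macrophage lists, rose 2.75-fold (knockout 1.29, 1.63 and 1.46, wild type 0.13, -0.22 and 0.09, adjusted p = 0.00130 from limma). Hexa, a subunit of beta-hexosaminidase, had 0.24 (SE 0.08). Among 25 genes of cholesterol and lipid handling, Lpl alone rose (0.187% over all genes). Apoe, the main lipid carrier of the brain, had 0.29 (SE 0.07) with all knockout arrays above the wild type arrays.

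Gfap, the filament protein of reactive astrocytes, rose on all 3 of its probe sets. The knockout arrays stood at 2.30, 2.35 and 2.44 and the wild type arrays at -0.06, -0.10 and 0.15 on the one with the largest change (5.15-fold, SE 0.09, adjusted p = 7.17e-06, limma, 3 arrays each), and the others gave 4.45-fold and 3.35-fold rises. Cd44, a hyaluronan receptor that reactive astrocytes and leukocytes carry, rose by 1.66 (SE 0.19) and 1.46 (SE 0.10) on 2 of 4 probe sets, with 0.60 and 0.21 on the others. S1pr3, a sphingosine phosphate receptor in the same list, rose by 0.79 (SE 0.10) on 1 of 3 probe sets. Of 34 measured reactive astrocyte genes, 28 had higher values, with a median of 0.17. By their representing probe set 4 rose (0.187% over all genes), and 5 by any (0.242% over all genes). Apart from Gfap these were Cd44, Cd14, Osmr and S1pr3. Vim, a second filament protein, had 0.50 (SE 0.11), and the protease inhibitor Serpina3n had 0.47 (SE 0.12), neither of which passed, while Lcn2, an iron-binding protein of astrocytes and neutrophils, had 0.95 with overlapping arrays.

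Markers of astrocyte and Bergmann glia identity had higher values in 30 of 33 measured genes, with a median of 0.17, and none passed in limma (12 at an unadjusted p under 0.05 higher and 2 lower, 4 by the methods' t-test corrected past the fold, 0 over all probe sets). Fabp7, a fatty acid carrier of radial and Bergmann glia, stood at 0.57, 0.48 and 0.57 in the knockout and at 0.03, 0.16 and -0.18 in the wild type (0.54, SE 0.09, adjusted p = 0.101 from limma). The water channel Aqp4 had 0.38 (SE 0.07), the receptor-like gene Mmd2 had 0.43 (SE 0.07) and the phagocytosis bridge Mfge8 had 0.41 (SE 0.08). The glutamate transporter Slc1a3, by contrast, had 0.03 (SE 0.07).

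**Figure D4:**
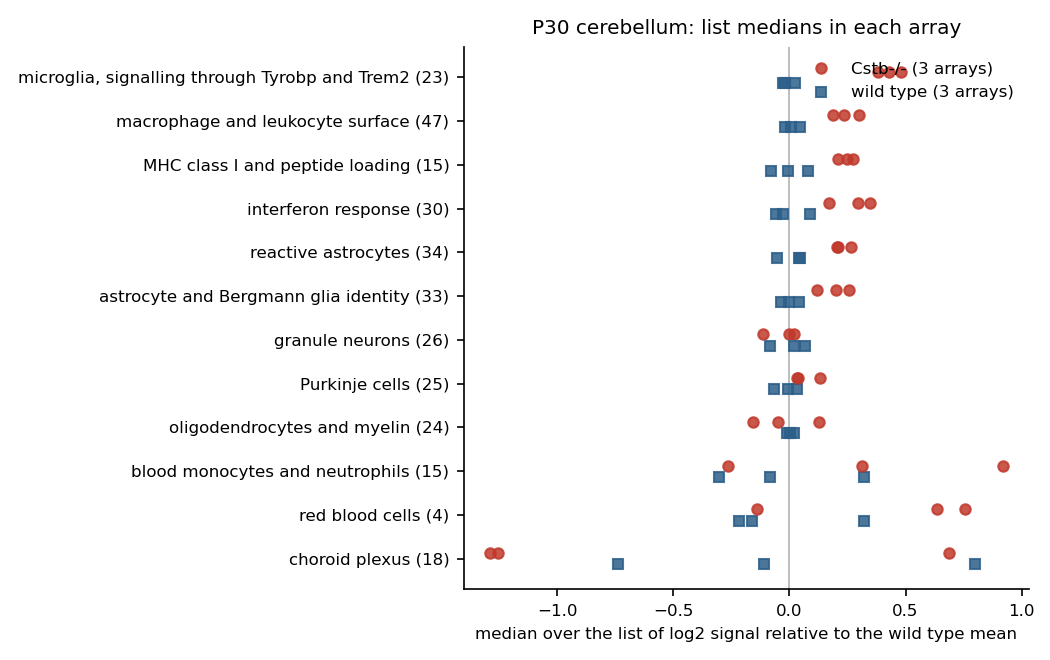
Each symbol is the median over a gene list of the log2 signal of 1 array relative to the wild type mean; red circles are the 3 Cstb-/- arrays, blue squares the 3 wild type arrays, and brackets give the number of genes. The genotypes are apart for the Tyrobp, macrophage, interferon, MHC class I and astrocyte lists. They are also narrowly apart for the Purkinje cell list (0.0318 to 0.1308 against -0.067 to 0.0314), so separation is not particular to immune and glial lists. The choroid plexus medians run from -1.29 to 0.80 and overlap between genotypes.

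Markers of the main cerebellar neurons gave no calls. Of 26 granule neuron genes 18 had lower values with a median of -0.04, of 25 Purkinje cell genes 17 had higher values with a median of 0.08, and of 17 interneuron genes 11 had higher values with a median of 0.02. None of these passed in limma (1, 2 and 2 at an unadjusted p under 0.05, and 0 by the methods' t-test with either correction). The vesicular glutamate transporter Slc17a7 of granule neurons had 0.21, the Purkinje genes Pcp2 and Calb1 had 0.15 (SE 0.10) and 0.07 (SE 0.07) by their representing probe sets (another probe set of Pcp2 had 0.52, adjusted p = 0.0684 from limma), and the leucine-rich protein gene Lgi2 of interneurons had -0.32 (SE 0.09). The array medians of the granule neuron list, -0.11 to 0.02 in the knockout and -0.08 to 0.07 in the wild type, overlapped. Those of the Purkinje cell list, 0.0318 to 0.1308 in the knockout and -0.067 to 0.0314 in the wild type, were narrowly apart.

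Ryr3, a ryanodine receptor that releases calcium from the endoplasmic reticulum, was the 1 downregulated gene besides Cstb. On the probe set that passed, the knockout arrays stood at -0.66, -0.67 and -0.55 and the wild type arrays at -0.03, 0.01 and 0.02, a log2 difference of -0.63 with an SE of 0.07 and an adjusted p of 0.0133 by limma. A second probe set had -0.65 with wider spread (knockout -0.89, -0.66 and -0.39, adjusted p = 0.192 from limma), and the third had -0.14. The adjusted p was 0.0972 without knockout replicate 1, 0.0727 without wild type replicate 1 and 0.0828 without wild type replicate 2. Of 22 measured calcium channels and pumps, 15 had lower values with a median of -0.01, and Ryr1, the relative of Ryr3 in Purkinje cells, had 0.11.

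Receptors and synapses gave no calls. Of 14 measured GABA-A receptor subunits, 7 had higher and 7 lower values, none passed in limma (2 at an unadjusted p under 0.05, 0 by the methods' t-test), and Gabrb1, the subunit that glia also carry, had 0.30 (SE 0.10). Of 14 genes of GABA synthesis, transport and scaffolding none passed (0 at an unadjusted p under 0.05 in limma and 0 by the methods' t-test), and Gad2, which makes GABA, had -0.06. Of 24 glutamate receptor and transporter genes none passed (4 at an unadjusted p under 0.05 in limma, 0 by the methods' t-test), with Grm5 at 0.59 and Gria1 at 0.36. Of 25 genes of presynaptic release, 16 had lower values and none passed in limma (4 at an unadjusted p under 0.05, 1 by the methods' t-test corrected past the fold). Stx1a, a SNARE protein of the plasma membrane, stood at 0.45, 0.59 and 0.46 in the knockout against -0.02, 0.07 and -0.05 (0.50, SE 0.07, adjusted p = 0.0597 from limma), and the calcium sensor Syt4 had -0.66 with overlapping arrays.

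Tissue that lies beside the cerebellum, and blood, varied from array to array. All 18 measured choroid plexus genes had lower mean values in the knockout (median -0.51), and none passed (1 at an unadjusted p under 0.05 in limma, 0 by the methods' t-test). The mean of these genes stood at -1.53, 0.72 and -1.51 in the knockout arrays and at -0.06, -0.65 and 0.71 in the wild type arrays, so knockout replicates 1 and 3 were low and knockout replicate 2 was as high as wild type replicate 3. Ttr, the transthyretin that the choroid plexus secretes, stood at -6.19, 0.58 and -5.79 against 0.21, -0.74 and 0.53. S100a8 and S100a9, the calprotectin genes of neutrophils, were high in knockout replicates 1 and 3 and wild type replicate 2 (2.29 to 3.33) and low in the other 3 arrays (-1.30 to -1.04), and the red cell band protein gene Slc4a1 was highest in the same 3 arrays (0.39 to 1.39). Genes of blood monocytes and neutrophils had higher values in 13 of 15 (median 0.35, array medians -0.27 to 0.92 in the knockout and -0.30 to 0.32 in the wild type), and none passed (1 at an unadjusted p under 0.05 in limma, 1 by the methods' t-test corrected past the fold). Of 4 red cell genes 3 had higher values and none passed (1 at an unadjusted p under 0.05 in limma, 0 by the methods' t-test). With the choroid plexus mean as a covariate, 51 of the 65 probe sets were still called, among them those of Cxcl13, Gfap, Tyrobp and the C1q chains, and the calls of Aif1, Cd14, Csf1r, Grn, H2-K1, Laptm5, Olfml3, Osmr, S1pr3 and Slc11a1 were lost on the probe set with their largest change. Its part in these results beyond that fit was not tested.

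Other cell types gave no calls. Of 24 oligodendrocyte and myelin genes none passed (2 at an unadjusted p under 0.05 in limma, 1 by the methods' t-test corrected past the fold), and Gpr17, a receptor of oligodendrocyte precursors, had 0.73 (SE 0.12, adjusted p = 0.0856 from limma) while Mag, of mature myelin, had -0.15. Of 18 genes of T, B and NK cells none passed (1 at an unadjusted p under 0.05 in limma, 0 by the methods' t-test), and the median was 0.01, with Cd79b of B cells at 0.36 and Cd4 at -0.11. Endothelial genes had a median of 0.07 over 20 genes and those of smooth muscle, pericytes and meninges 0.03 over 22, again with no call (2 each at an unadjusted p under 0.05 in limma, 0 by the methods' t-test).

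Programmes of stress and death showed small differences. Of 34 apoptosis genes, 22 had higher values and none passed (3 at an unadjusted p under 0.05 in limma, 0 by the methods' t-test), with Apaf1, the core of the apoptosome, at 0.32 (SE 0.07). Of 33 genes of oxidative stress and antioxidant defence, 24 had higher values and none passed (4 at an unadjusted p under 0.05 in limma, 1 by the methods' t-test corrected past the fold), and the largest difference was that of Cyba (0.62, SE 0.11), a subunit of the oxidase of phagocytes, with Cat, which breaks down hydrogen peroxide, at 0.21 and Hmox1 at 0.16. Of 22 genes of the unfolded protein response, 16 had higher values and none passed (4 at an unadjusted p under 0.05 in limma, 1 by the methods' t-test corrected past the fold), led by Edem1 at 0.47 (SE 0.08). Oxidative phosphorylation genes had lower values in 27 of 39, with a median of -0.03 and no call (1 at an unadjusted p under 0.05 in limma, 0 by the methods' t-test). Immediate early genes, which report recent neuronal activity, had lower values in 17 of 24 and no call (1 at an unadjusted p under 0.05 in limma, 0 by the methods' t-test), with Jun at -0.53 (SE 0.11) and Fos at -0.21. Of 25 mitosis genes 17 had higher values and none passed (3 at an unadjusted p under 0.05 in limma, 0 by the methods' t-test), with the proliferation marker Mki67 at 0.46 (SE 0.14).

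Of the 46 changed genes, 38 were in at least 1 list and 8 in none. Besides Gbp6 and Ifi27l2a, the latter were Scyl2, Cnmd, Rnase4, AU020206, Pycard and Sox4. Scyl2, a pseudokinase linked to clathrin-coated vesicles, rose 2.33-fold on 1 of 4 probe sets (knockout 1.08, 1.24 and 1.33, wild type -0.06, -0.00 and 0.06, adjusted p = 0.000388 from limma), with 0.46, 0.18 and -0.20 on the others. AU020206, a noncoding transcript, rose 2.02-fold, and Rnase4, a secreted ribonuclease, rose 2.42-fold (knockout 1.35, 1.10 and 1.38). Cnmd, which encodes chondromodulin, rose 2.20-fold with wild type arrays from -0.33 to 0.38. Pycard, the adaptor of inflammasomes, rose by 0.88 (SE 0.10) on 1 of 3 probe sets, and Sox4, a transcription factor of developing neurons and glia, rose by 0.62 (SE 0.07) on 1 of its 8 probe sets.

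To ask whether these rises were already present in young animals, the knockout effect at P30 was set against that at P7 (4 arrays per genotype, none shared), as a difference of differences within each age. The difference passed for 57 of 45037 probe sets (0.127%), 54 of them with a positive difference, and for 39 to 114 when 1 P30 array was left out (39 without wild type replicate 1 and 114 without wild type replicate 3). Of the 57, 38 were among the 65 probe sets changed at P30, whose arrays enter both tests. On 29 of the 46 changed genes the probe set with the largest change passed. At P7, Cxcl13 had -0.06 (SE 0.08), Tyrobp 0.07 (SE 0.08), C1qa 0.18 (SE 0.08) and Cd68 0.00 (SE 0.12), values that differed from those at P30 by 5.76 (adjusted p = 8.84e-10 from limma), 2.13 (adjusted p = 2.04e-07), 1.65 (adjusted p = 2.92e-05) and 1.46 (adjusted p = 0.00135).

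Gfap had 0.50 (SE 0.23) at P7 and differed by 1.86 (adjusted p = 0.0144 from limma) on the probe set with its largest change, and by 1.67 (adjusted p = 0.128) and 1.81 (adjusted p = 0.00282) on the others. For B2m, H2-K1, Cd74 and Scyl2 the difference between ages did not pass. B2m had 0.30 (SE 0.23) at P7, H2-K1 had 0.84 (SE 0.38), Cd74 had 0.59 and Scyl2 had 0.53 (SE 0.12). Cstb was low at both ages, with differences between ages of 0.41 (SE 0.20) and -0.46 (SE 0.12) that did not pass, and Ryr3 had -0.10 (SE 0.07) at P7 (difference -0.52, adjusted p = 0.0577 from limma). Ptprc, Ctse, Vim and Fabp7, which did not pass at P30, passed in the difference between ages at 1.85 (adjusted p = 0.00535), 1.42 (adjusted p = 0.0265), 0.82 (adjusted p = 0.00547) and 0.64 (adjusted p = 0.0304). At P7, 3 of 4 knockout and 1 of 4 wild type arrays were labelled male, and with labelled sex as a covariate 62 probe sets passed.

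**Figure D5:**
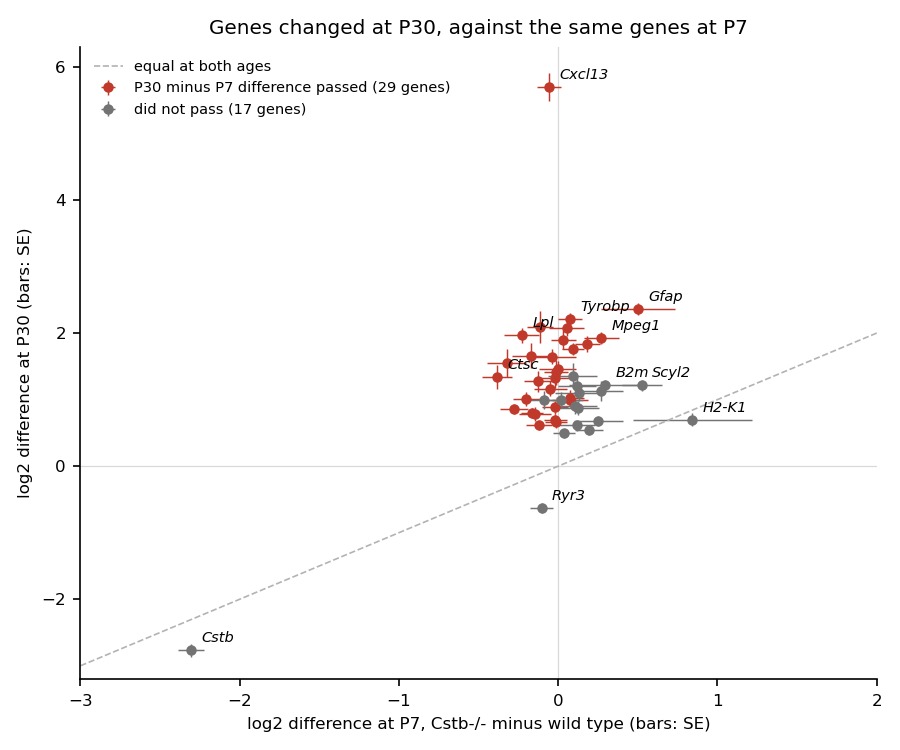
Each point is 1 of the 46 genes changed at P30, by its probe set with the largest change, with the log2 difference (Cstb-/- minus wild type) and its SE at P7 on the horizontal and at P30 on the vertical axis; red points passed the limma test of the difference between ages and the dashed line marks equal effects. The 29 red points run from -0.39 to 0.50 at P7 and lie between 0.62 and 5.70 at P30.

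The granule cell cultures, from 5-day-old mice after 2 days in vitro, held 3 knockout and 4 wild type arrays. The difference between the knockout effect at P30 and that in culture passed for 1400 probe sets (3.11%), 46 of them among the 65 changed at P30. With labelled sex as a covariate 436 passed, and without any 1 of the P30 arrays 786 to 870. In culture Cxcl13 had -0.31, Tyrobp 0.02, Mpeg1 -0.01 and C1qc -0.31, none of which passed there, and each differed from its value at P30 (adjusted p = 4.60e-08, 8.91e-07, 1.62e-06 and 2.96e-05 from limma). Ctsh, in contrast, had 0.80 in culture (adjusted p = 0.00306 from limma) beside 0.80 at P30, with a difference that did not pass (adjusted p = 0.990). Gusb had 0.69 in culture (adjusted p = 0.0324 from limma) and did not differ detectably from P30 either (adjusted p = 0.664). Ifi27l2a, which rose at P30, had -0.98 in culture (adjusted p = 0.00874 from limma) and the difference passed (adjusted p = 0.000188).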

How the data were processed

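RNA of cerebella of 3 mice per genotype at P30, by the methods, was hybridised to Affymetrix mouse genome arrays. Per the labels and the methods, the authors normalized the signals by RMA and centred each probe set on its median within each of the 3 experiments, and the deposited values are on the log2 scale. Centring removed the levels, so a filter on low signal could not be applied and ages were compared only as differences between genotypes. Precision is set by the small number of arrays.

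From these values, 45037 of 45101 probe sets (64 control probe sets left out) were fitted with limma 3.58.1 in R 4.3.3 (lmFit and eBayes, 3 against 3 arrays, two-sided, Benjamini-Hochberg over all probe sets). A probe set was called changed at an adjusted p under 0.05 and a fold of 1.3 or more. The unpaired t-test of the methods was run on the same values, with correction over all probe sets and over those past the fold. Differences of differences were fitted as contrasts of group means over the P30 and P7 arrays or the P30 and culture arrays. Adjusted p values of these contrasts are from limma as well.

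In the annotation, 34945 probe sets had 1 gene symbol, 932 several and 9160 none, which gave 18193 genes. The 41 gene lists held 995 entries, and 900 of them, 845 different genes, had a probe set, so that some genes stand in more than 1 list. The members and lists were chosen with earlier results of these data known. Genes were named by rule: Cstb, the genes that the study discusses for P30, the 15 largest rises and 10 largest falls among changed probe sets with 1 symbol, up to 8 members of each list with the largest differences, and those that passed the difference between ages. The largest rises and falls also had to show no overlap between genotypes, which all 65 changed probe sets met. Other changed genes, and members outside this rule that are well-known markers (Tmem119, Calb1, Slc1a3, Mag, Fos, Tnf and the like), were named after their values were seen. Columns of no other series and no comparison of the authors were used. On simulated data with the same 45037 probe sets for P30, 46 of 50 planted rises of 1 on the log2 scale, 29 of 50 of 0.5 and 45 of 50 falls of 1 were recovered, with 9 false calls. The simulated noise was independent between probe sets, with the residual SD of each. Shifts that many genes share on an array, as for the choroid plexus, were not simulated, so these figures do not cover them. Tables and plots were made with Python 3.11.15, pandas 2.3.3 and matplotlib 3.10.9.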

Additional observations from a re-analysis of the deposited data

Results flagged for a closer look

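For 29 of the genes changed at P30 the effect of the knockout differed between P30 and P7 by the limma contrast, and each value below is the P30 log2 difference minus the P7 log2 difference on the probe set with the largest change at P30. The chemokine Cxcl13 had 5.76. Among the complement and phagocyte genes, C1qb had 2.20, Tyrobp 2.13, Cd52 2.03, Clec7a 1.87, Laptm5 1.87, Ly86 1.69, C1qc 1.67, Mpeg1 1.66, C1qa 1.65, Cd68 1.46, Cd14 1.42, Lgals3 1.22, Itgb2 0.94, Fcer1g 0.93 and Plek 0.71. The cathepsins Ctsc, Ctss and Ctsh had 1.72, 1.34 and 0.96, and the lysosomal enzyme gene Gusb had 1.13. Lpl had 2.19, and the astrocyte genes Gfap, Cd44 and S1pr3 had 1.86, 1.84 and 0.93. The remaining genes were Rnase4 at 1.41, AU020206 at 1.21, Pycard at 0.90, Sox4 at 0.74 and Olfml3 at 0.67. All 29 differences were positive. These genes were picked as risen at P30 and the same P30 arrays enter the differences, so this sign was largely set by the selection.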

How the results depend on the processing

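Neither Cstb nor any other single named gene changed direction under the alternatives below. For the list medians only the size of the shift was assessed, not its sign. At P30, 65 probe sets and 35 genes (by their representing probe sets) were called. The methods' t-test called 1 probe set over all probe sets and 210 past the fold, and a test against the fold of 1.3 itself called 23 (16 genes). Array weights gave 226 (109 genes) and 1 fit over 21 arrays 107 (60 genes). Labelled sex as a covariate gave 29 (19 genes). As knockout replicate 1 was the only sample labelled female, this is the same fit as leaving that array out, not a separate check of sex. Averaging the probe sets of each gene gave 53 genes. Leaving out 1 array at a time gave 29 to 76 probe sets, 19 to 38 genes and 18 to 31 calls in the gene lists (30 with all arrays). The lower Cstb probe set had -2.77 in the methods' t-test but an adjusted p of 0.0969 over all probe sets, and lay between -2.83 and -2.69 without any 1 array.

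Replicate numbers did not pair the samples (same-numbered deviations correlated at -0.04, -0.18 and -0.03), and with a replicate block 49 probe sets were called, 44 of them shared, and 31 of the 46 changed genes. For the difference between P30 and P7 a replicate block within each experiment left 1 call of 57, and leaving out 1 array gave 39 to 114. For P30 against the cultures, whose groups share no numbers, so that no block could be fitted, the 1400 calls became 2295 in 1 fit over 21 arrays, 436 with labelled sex and 786 to 870 without 1 P30 array.

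Of the values of single named genes under these alternatives, 485 kept their side of the threshold, 217 no longer passed and 3 newly passed. Of the list medians, 355 moved by less than the spread between arrays and 23 by more. The causes were not tested. With 3 arrays per genotype, 29 of 50 planted rises of 0.5 were recovered on simulated data, so differences of that size can be missed.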
